A study of Homo sapiens with 96 samples.

Results

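EGFR knockdown in HaCaT-PIK3CA cells was measured on 6 of the 96 arrays of the series. These were the arrays with HaCaT-PIK3CA as the cell line and no drug or vehicle in the treatment label, of which 3 had an siRNA to EGFR (siEGFR) and 3 a scramble siRNA (scramble). HaCaT is a spontaneously immortalized line of human keratinocytes, and HaCaT-PIK3CA is 1 line transduced with a lentivirus that keeps a mutant PIK3CA, the catalytic subunit of the lipid kinase PI3K, expressed from a CMV promoter. All 6 arrays share this construct. Each group held 2 arrays of batch J and 1 array of batch M. The siRNA was a single commercial siRNA to EGFR introduced by lipofection, and the time from transfection to RNA extraction is not given for the arrays in the sources used here. The labels do not say that the arrays came from separate cultures, so the p-values given here cover only array-to-array spread, part or all of which may be technical. The level of the PIK3CA construct itself was not analysed here.

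The same siEGFR and scramble arms, 3 arrays each, were measured in HaCaT-EGFR and HaCaT-HRAS, which carry constructs for EGFR and for a mutant HRAS, and in the control line HaCaT-Mock. HaCaT-PIK3CA cells were also given afatinib (10 nM, 3 arrays), gefitinib (100 nM, 2 arrays), cetuximab (100 nM, 3 arrays) or the PBS vehicle (3 arrays) without an siRNA label, PBS on top of scramble siRNA (2 arrays), or 1 of these inhibitors on top of scramble siRNA (3 arrays). Of the 2 arrays with scramble and PBS, 1 was of batch J and 1 of batch E. All 3 arrays with scramble and an inhibitor were of batch E, which held no siEGFR array. Afatinib and gefitinib block the EGFR kinase, and cetuximab is an antibody that keeps ligand from the receptor.

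EGFR is a receptor tyrosine kinase that keratinocytes use to sense ligands of the EGF family. Ligand binding activates the RAS, RAF, MEK and ERK cascade, whose output genes include immediate early transcription factors and the phosphatases and Sprouty proteins that feed back on the cascade, and it activates PI3K and AKT. In a line whose PI3K is kept active by a mutant subunit, loss of EGFR removes the receptor while 1 of its downstream branches has its own input. In the epidermis EGFR signalling is known for promoting proliferation and for holding back differentiation.

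Expression is given throughout as the deposited log2 value of 1 probe set per gene, for 19775 genes, and a difference of 1 is a doubling. Pairs of the 6 arrays correlated at 0.984 to 0.997 over all genes, and no pair was a duplicate. The ACTB 3'-minus-5' probe set difference, a sign of RNA degradation or of labelling, was 1.48, 1.32 and 0.43 in the siEGFR arrays and 1.24, 1.34 and 0.45 in the scramble arrays, so it followed the batch and not the siRNA. All 9 measured keratinocyte markers were at levels of 8.05 to 13.2, and 3 of them (CDH1, DSG3 and DSP) were higher with siEGFR past the limma test. The DSP call was lost without any 1 of the 6 arrays, and the DSG3 call without some of them. The measured members of the melanocyte, fibroblast, endothelial and leukocyte marker lists were at 2.97 to 7.34, and 0 of these 18 genes passed the limma test (0 at an unadjusted p under 0.05). 1 comparison array stood apart from its label: replicate 1 of afatinib had a CDH1 level of 10.03, outside the range of 11.74 to 12.06 of the other 7 inhibitor arrays and close to the 2 arrays with scramble and PBS (9.92 and 10.01). Across all genes this array correlated at 0.996 with the batch J array of scramble and PBS, against 0.986 with the batch J replicate of its own group. Results for the inhibitor response against PBS use all 8 inhibitor arrays. Some are also given without this array, and each such place says so.

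The promoters of 3 genes that changed are shown first, because they hold short sequences known to bind factors downstream of the receptor. Each runs from 250 bases before the gene start to 50 after it, as given by RefSeq for GRCh38.p14, with the match in capitals. EGR1, an immediate early transcription factor, fell, and its window (chr5:138465229-138465528, plus strand) holds 2 matches to the CArG box, the site of serum response factor. PLAUR, the urokinase receptor, fell (chr19:43670120-43670419, minus strand), and SCEL, sciellin, a precursor of the cornified envelope, rose (chr13:77535456-77535755, plus strand). Both hold 1 match to TGANTCA, the site bound by AP-1, of which FOSL1 is a subunit.
EGR1: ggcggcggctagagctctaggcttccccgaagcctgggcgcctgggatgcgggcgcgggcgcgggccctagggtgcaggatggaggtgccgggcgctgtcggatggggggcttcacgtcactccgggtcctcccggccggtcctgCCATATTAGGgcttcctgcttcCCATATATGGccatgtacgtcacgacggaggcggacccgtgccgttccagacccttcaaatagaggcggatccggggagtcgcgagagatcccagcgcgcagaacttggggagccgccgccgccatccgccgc
PLAUR: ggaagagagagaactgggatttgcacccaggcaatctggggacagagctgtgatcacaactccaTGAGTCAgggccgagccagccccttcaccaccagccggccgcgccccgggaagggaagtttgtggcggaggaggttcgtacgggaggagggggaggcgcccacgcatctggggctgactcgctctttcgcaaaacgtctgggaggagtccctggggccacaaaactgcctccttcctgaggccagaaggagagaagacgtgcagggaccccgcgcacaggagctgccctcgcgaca
SCEL: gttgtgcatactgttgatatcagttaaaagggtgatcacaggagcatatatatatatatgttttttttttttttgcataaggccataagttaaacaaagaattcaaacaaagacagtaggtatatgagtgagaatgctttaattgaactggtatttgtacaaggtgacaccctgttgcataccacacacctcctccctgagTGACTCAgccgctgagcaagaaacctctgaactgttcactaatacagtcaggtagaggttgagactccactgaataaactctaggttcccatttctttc
Both motifs were searched on both strands, and neither can overlap the other. A CArG box was found in 454 of 35116 promoters (1.29%) and TGANTCA in 2707 (7.71%). Of the 11 MAPK output genes that fell, 6 had a promoter in this table, of which 1, EGR1, held a CArG box and 0 held TGANTCA. A match describes the letters of the window and is not evidence that a factor binds there.

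EGFR mRNA was reduced in every siEGFR array. Its level was 8.81, 8.66 and 7.96 in the siEGFR arrays, against 10.52, 10.62 and 9.96 in the scramble arrays. All siEGFR arrays lay below all scramble arrays, and the batch M array was the lowest of its group on both sides. The difference was -1.89 (SE 0.10, limma adjusted p = 1.1e-21), with -1.83 in batch J and -2.01 in batch M, and on the linear scale the EGFR signal fell by 73.0%. Of 9 probe sets for EGFR, 5 fell, with differences of -1.89, -1.92, -1.91, -1.13 and -0.92, and the other 4, which were dimmer, did not pass. The inhibitors, which act on the EGFR protein, gave an EGFR mRNA difference of 0.02 against PBS (adjusted p = 0.91).

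Knockdown changed 2300 genes at an adjusted p under 0.05. Of all genes tested, 1191 rose (6.02%) and 1109 fell (5.61%), and the median difference over all genes was -0.02. A change of at least 1 was found for 115 of them, 87 higher and 28 lower. The direction was the same in batch J and batch M for 2296 of the 2300. These genes were called from the same arrays, so this is no independent replication, and the share over all genes was not counted. The siEGFR and scramble arrays did not overlap for 1564 of the 2300. Over all genes, every siEGFR array lay above every scramble array for 1404 (7.1%) and below for 1924 (9.73%). Beside EGFR, 110 of the genes chosen for closer description passed the test. Of these calls 22 were lost when some 1 of the 6 arrays was left out, 50 when the 2 arrays with scramble and PBS took the place of the scramble arrays, and 53 when the 3 PBS arrays did, so that 42 held against all 3 kinds of control. Many of these losses, but not all, are given beside the gene group. The shares of all genes, 6.02% higher and 5.61% lower, are the background for the list counts below.

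**Figure D1:**
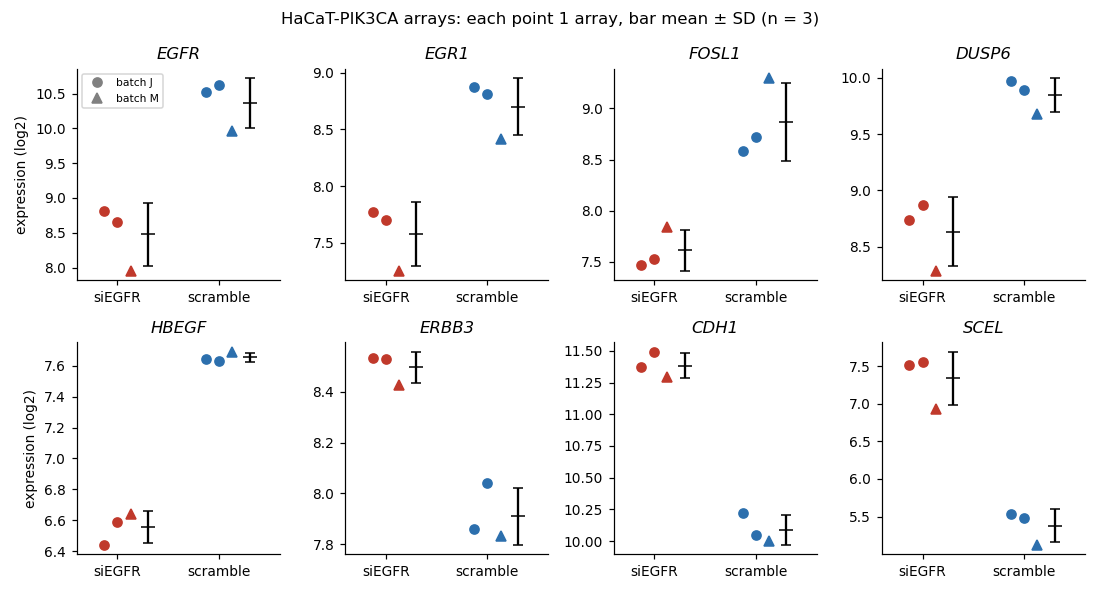
Expression (log2, vertical axis) of 8 genes in the 3 siEGFR and the 3 scramble arrays of HaCaT-PIK3CA. Each point is 1 array, circles are batch J, triangles are batch M, and the bar beside each group is its mean ± SD (n = 3). EGFR, EGR1, FOSL1, DUSP6 and HBEGF were lower and ERBB3, CDH1 and SCEL higher in siEGFR arrays, without overlap.

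Genes of MAPK output and feedback were lower. Of 29 measured members, 11 fell and 0 rose, with a median difference of -0.40 against -0.02 over all genes, and 18 members had every siEGFR array below every scramble array. The members that fell were EGR1, FOSL1, IER3, the phosphatases DUSP4, DUSP5, DUSP6 and DUSP7, the Sprouty inhibitors SPRY1, SPRY2 and SPRY4, and the ETS factor ETV5. The list was chosen with earlier results of these data known, and the call of ETV5 was lost without any 1 of the 6 arrays, that of DUSP4 without either batch J siEGFR array, scramble replicate 2 or scramble replicate 3, and that of SPRY2 without siEGFR replicate 3. The count was 4 against the arrays with scramble and PBS (EGR1, IER3, DUSP5 and DUSP6), 13 against the PBS arrays and 5 in batch J alone.

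Among the immediate early factors, EGR1 was at 7.78, 7.70 and 7.25 in siEGFR arrays and at 8.88, 8.82 and 8.42 in scramble arrays. The groups were apart by -1.13 (SE 0.16, adjusted p = 5.2e-07). FOSL1, the FRA1 subunit of AP-1, was at 7.47, 7.53 and 7.84 in siEGFR arrays and at 8.58, 8.72 and 9.30 in scramble arrays, with the batch M array highest in both groups. It fell by 1.25 on the log2 scale (SE 0.24, adjusted p = 0.00011). IER3, an immediate early survival gene, fell by 1.06 (adjusted p = 1.3e-09), while MYC gave -0.41 (adjusted p = 0.106) and CCND1, cyclin D1, -0.19 (adjusted p = 0.333).

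Of the phosphatases that dephosphorylate MAP kinases, DUSP6, which acts on ERK in the cytoplasm, was at 8.74, 8.87 and 8.29 in siEGFR arrays and at 9.97, 9.89 and 9.68 in scramble arrays. DUSP5, which acts on ERK in the nucleus, was at 6.69, 6.56 and 6.73 in siEGFR arrays and at 7.94, 7.92 and 8.08 in scramble arrays. Neither pair of groups overlapped. DUSP6 fell by 1.21 (SE 0.21, adjusted p = 2.5e-05) and DUSP5 by 1.32 (SE 0.13, adjusted p = 2.2e-11), and DUSP7 and DUSP4 fell by 0.71 and 0.51. The DUSP4 call rests on 1 probe set, and its other probe sets gave -0.27 and -0.31 and did not pass. It was lost by the probe set rule of the study and with the mean over probe sets. SPRY1, SPRY4 and SPRY2, which hold back signalling between the receptor and RAS, fell by 0.77, 0.55 and 0.50. The related SPRED1 and SPRED2 gave -0.16 (adjusted p = 0.629) and -0.36 (adjusted p = 0.116), and ERRFI1, which binds and inhibits the EGFR kinase, gave 0.30 (adjusted p = 0.465).

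Ligands and receptors of the ERBB family moved in both directions. Of 8 measured ligands, 2 fell and 0 rose. HBEGF, heparin-binding EGF, was at 6.44, 6.59 and 6.64 in siEGFR arrays and at 7.65, 7.63 and 7.69 in scramble arrays, a fall of 1.10 without overlap (SE 0.11, adjusted p = 1.5e-11). TGFA, an autocrine ligand of keratinocytes, fell by 0.58 (SE 0.12, adjusted p = 0.00043), a call lost against the arrays with scramble and PBS (-0.35). NRG1, a ligand of ERBB3 and ERBB4, gave 0.16 (adjusted p = 0.502) and EREG, epiregulin, -0.10 (adjusted p = 0.875). Among the receptors, ERBB3, which has little kinase activity of its own and recruits PI3K, was at 8.53, 8.53 and 8.43 in siEGFR arrays and at 7.86, 8.04 and 7.83 in scramble arrays. It rose by 0.59 (SE 0.08, adjusted p = 7.4e-08), and ERBB2 and ERBB4 gave 0.10 (adjusted p = 0.593) and -0.22 (adjusted p = 0.39).

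Of 19 measured adaptors and turnover factors of EGFR signalling, 3 rose and 0 fell. These were the ubiquitin ligases CBL (0.52, adjusted p = 0.00036) and CBLB (0.54, adjusted p = 3.4e-05), which send activated EGFR to the lysosome, and SOS1, the exchange factor for RAS (0.38, adjusted p = 0.0098). The SOS1 call was lost without siEGFR replicate 1 or scramble replicate 3. All 3 calls were lost against both other control groups: against PBS arrays CBL was at 0.09, CBLB at 0.06 and SOS1 at -0.0059.

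In the PI3K branch, to which the construct adds a mutant catalytic subunit, 3 of 18 measured genes rose and 2 fell, with a median of 0.00. PIK3R1, the p85 alpha regulatory subunit that holds the catalytic subunit, was at 8.16, 8.15 and 7.59 in siEGFR arrays and at 7.19, 7.05 and 6.80 in scramble arrays. It rose by 0.95 (SE 0.13, adjusted p = 8.7e-08). PIK3CB, the beta catalytic subunit, fell by 0.40 (SE 0.08, adjusted p = 0.00032), and its groups overlapped because both batch M arrays were lower than the batch J arrays. SGK1, a kinase activated through PI3K, rose by 0.79 (adjusted p = 7e-06). Of 17 FOXO targets, which AKT represses by keeping FOXO factors out of the nucleus, 2 rose and 1 fell: BCL6, a transcriptional repressor, by 0.74 (adjusted p = 5.6e-09), FBXO32, the ubiquitin ligase atrogin 1, by 0.69 (adjusted p = 0.0022), and TRIB2, a pseudokinase, by -0.51 (adjusted p = 0.047). The TRIB2 call was lost without any 1 of the siEGFR arrays or scramble replicate 2 or 3, and TRIB2 was at -0.04 against PBS arrays. PIK3R1 and SGK1 lost their calls against PBS arrays (0.17 and 0.27), and FBXO32 and PIK3CB lost theirs in batch J alone. FBXO32 also lost its call against the arrays with scramble and PBS. PIK3CB also lost its call without the batch term and with the mean over its probe sets.

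Junction and cornified envelope genes that passed the test were higher, where 6.02% of all genes rose and 5.61% fell. Of 12 adherens and tight junction genes 5 rose and 0 fell, and of 10 desmosome genes 4 rose and 0 fell, with medians of 0.07 and 0.30. CDH1, E-cadherin, was at 11.37, 11.49 and 11.29 in siEGFR arrays and at 10.22, 10.05 and 10.00 in scramble arrays. It rose by 1.29 (SE 0.24, adjusted p = 5.3e-05), and CLDN1, a claudin of tight junctions, by 0.59 (adjusted p = 0.01), but against PBS arrays they were at 0.04 and -0.03 and neither passed. The desmosomal cadherins DSC3 and DSG3 rose by 0.84 and 0.66, the plaque protein PKP1 by 0.50 and desmoplakin (DSP) by 0.26. The desmosome count was 2 in place of 4 without siEGFR replicate 1, siEGFR replicate 2, scramble replicate 2 or scramble replicate 3. The DSG3 call was lost in each of these settings, and the DSP call without any 1 of the 6 arrays. Without siEGFR replicate 3 or scramble replicate 1 the count stayed at 4, because another member passed. Against the arrays with scramble and PBS 2 junction and 0 desmosome genes rose, against PBS arrays 1 and 1, in batch J alone 2 and 1, and without the batch term 1 and 0.

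Of 16 cornified envelope genes 3 rose and 0 fell. SCEL was at 7.52, 7.56 and 6.93 in siEGFR arrays and at 5.53, 5.48 and 5.13 in scramble arrays, with the batch M array lowest in both groups. This was a rise of 1.96 (SE 0.28, adjusted p = 7.9e-07), the largest of any gene whose mean reached the median of all genes. IVL, involucrin, rose by 0.84 (adjusted p = 0.00045) and FLG, filaggrin, by 0.48 (adjusted p = 0.02), a call that was lost without siEGFR replicate 1 or 2 or scramble replicate 2 or 3. Against the arrays with scramble and PBS none of SCEL, IVL and FLG passed (1.01 for SCEL), and against PBS arrays FLG was at -0.10. Of 17 suprabasal and mucosal genes 1 rose, near the share of 6.02% over all genes. This was DSC1, at a low level of 3.56 to 3.82 in siEGFR arrays and 3.20 to 3.52 in scramble arrays. Its call was lost without siEGFR replicate 1 or 3 or scramble replicate 1 or 3. The mucosal keratins KRT13 and KRT4 gave 0.63 (adjusted p = 0.218) and 0.44 (adjusted p = 0.438). Among 12 basal keratinocyte genes the integrin subunits ITGA3 and ITGB1 fell by 0.69 and 0.26, and DST, dystonin, rose by 0.68. Without the batch term all of these calls were lost. ITGB1 also lost its call in batch J alone, by the probe set rule of the study and with the mean over probe sets. DST also lost its call against the arrays with scramble and PBS.

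Secreted factors of inflammation split. CCL2, a chemokine for monocytes, was at 7.58, 7.89 and 7.21 in siEGFR arrays and at 5.94, 5.74 and 5.45 in scramble arrays. It rose by 1.85 (SE 0.44, adjusted p = 0.0022). TNFSF10, the death ligand TRAIL, rose by 1.06 (adjusted p = 0.00027). IL1B fell by 0.87 (SE 0.12, adjusted p = 1.3e-07), and IL1RN, the antagonist of the interleukin 1 receptor, rose by 0.60 (adjusted p = 0.0022). Over the list of 19 chemokines and interleukins 4 rose and 2 fell. The calls of CCL2 and IL1RN were lost in batch J alone and against PBS arrays, and that of IL1RN also without the batch term. The call of TNFSF10 was lost against the arrays with scramble and PBS.

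Of 24 interferon response genes 8 rose and 0 fell, with a median of 0.37. TRIM22, an antiviral ubiquitin ligase, was at 7.34, 7.15 and 6.82 in siEGFR arrays and at 6.25, 5.67 and 5.72 in scramble arrays. It rose by 1.22 (SE 0.28, adjusted p = 0.0014), MX1, a GTPase that blocks viruses, by 0.85 (adjusted p = 0.0012), IFI44 by 0.60 and IFI6 by 0.60. The count was 4 in place of 8 without scramble replicate 3, 4 in batch J alone, 3 without the batch term, 2 against the arrays with scramble and PBS and 5 against PBS arrays. TRIM22 did not pass in batch J alone or against either other control group (0.54 and 0.77). In contrast TAP2, a subunit of the peptide transporter that loads MHC class I, fell by 0.74 (SE 0.08, adjusted p = 1.9e-10). This rests on 1 of its 4 probe sets, and the others gave -0.09, -0.30 and -0.07 and did not pass. It was the 1 gene that fell among 17 of antigen presentation, of which 1 rose, HLA-B, whose call was lost without any 1 of the 6 arrays.

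Of 28 S, G2 and M phase genes 5 rose and 1 fell. KIF11, a kinesin of the mitotic spindle, rose by 0.76 (SE 0.11, adjusted p = 1e-06), TYMS, thymidylate synthase, by 0.49 (adjusted p = 7.7e-08), and MCM6 and MCM3, subunits of the replicative helicase, by 0.30 and 0.28. CDK6, a kinase of G1, was at 10.30, 10.31 and 10.10 in siEGFR arrays and at 9.47, 9.54 and 9.26 in scramble arrays, a rise of 0.81 (adjusted p = 2.1e-07), and CCNE1, cyclin E1, fell by 0.46 (adjusted p = 0.0003). Of 11 sterol synthesis genes 3 rose and 0 fell: INSIG1, which retains the sterol sensor in the endoplasmic reticulum, by 0.90, HMGCS1 by 0.56 and SQLE by 0.54. None of these 3 passed against PBS arrays, nor did KIF11 (0.30) or CDK6 (0.11). MCM3 lost its call in batch J alone, without the batch term and against the arrays with scramble and PBS. TYMS lost its call by the probe set rule of the study.

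Of 15 hypoxia and glycolysis genes 4 fell and 2 rose. VEGFA, the endothelial growth factor, fell by 0.90 (SE 0.12, adjusted p = 2.5e-07) and the glucose transporter SLC2A1 by 0.39, while NDRG1 and ADM rose by 0.61 and 0.53. In the plasminogen system PLAU, urokinase, was at 8.37, 8.50 and 8.58 in siEGFR arrays and at 9.17, 9.20 and 9.31 in scramble arrays, a fall of 0.75 (SE 0.10, adjusted p = 4e-08), and its receptor PLAUR and the inhibitor SERPINE2 fell by 0.44 and 0.83, so that 3 of 15 genes of the metalloproteinases and plasminogen system fell and 1 rose. Of 19 TGF-beta and BMP pathway genes 4 rose and 4 fell. ID2 and ID3, inhibitors of helix-loop-helix factors and targets of BMP signalling, rose by 1.65 (SE 0.13, adjusted p = 2.7e-14) and 1.02 (SE 0.12, adjusted p = 2.8e-09), and PMEPA1, a TGF-beta target, and TGFBR3, betaglycan, fell by 0.39 and 0.75. SLC2A1 and PMEPA1 lost their calls in batch J alone and against both other control groups, and SLC2A1 also without the batch term. TGFBR3 lost its call against PBS arrays and PLAUR against the arrays with scramble and PBS.

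Of 9 genes of the RNA silencing machinery 3 fell and 0 rose. AGO2, the slicer that carries siRNAs, fell by 0.49 (SE 0.12, adjusted p = 0.0024), and TNRC6A and XPO5 by 0.46 and 0.24, of which TNRC6A was lost without siEGFR replicate 1 or 3 or scramble replicate 1 or 3 and XPO5 without scramble replicate 2. Against PBS arrays none of the 3 passed (AGO2 -0.03, TNRC6A 0.31, XPO5 -0.05), and AGO2 also lost its call in batch J alone and against the arrays with scramble and PBS. TFAP2A, the AP-2alpha transcription factor studied in these cells, rose by 0.22 (SE 0.06, adjusted p = 0.0056), a call lost with only the 6 arrays in the fit, in batch J alone, without the batch term, with the mean over its probe sets, and against both other control groups (0.08 and 0.12). Of 4 measured genes that the study named as lowered AP-2alpha targets 3 fell, VEGFA, TGFBR3 and TGFA, and of 5 named as raised targets 0 rose and 1 fell, EGFR itself, with a median of -0.06. The study drew both lists from responses to EGFR inhibitors in the HaCaT lines, and raised and lowered refer to those responses. EGFR is also the target of the siRNA. As the lists come from the same series, their direction is no independent evidence. In the lists not yet named at most 2 members passed in either direction.

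**Figure D2:**
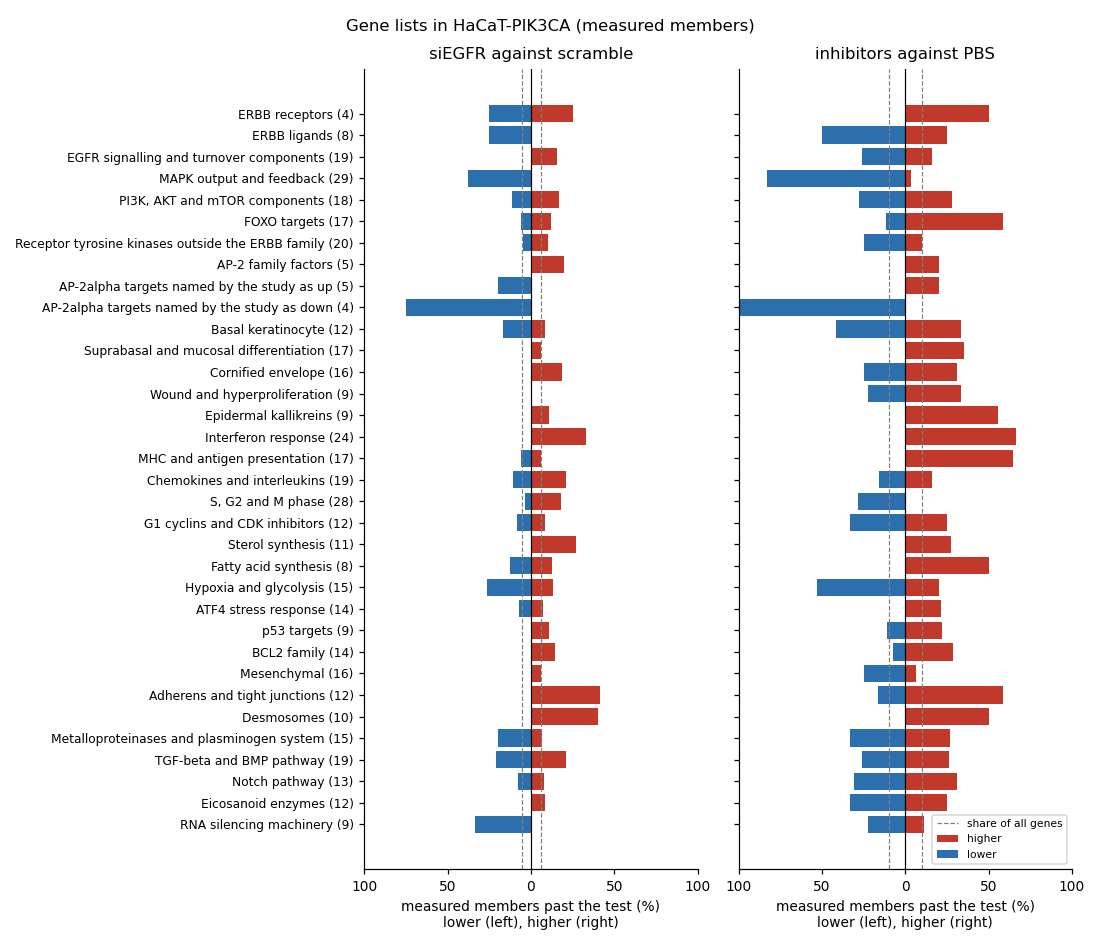
Share of measured members of each gene list past the test (horizontal axis, percent; lower to the left, higher to the right) for siEGFR against scramble and for all 8 inhibitor arrays against PBS in HaCaT-PIK3CA, with the number of measured members beside each list. Dashed lines mark the share of all genes past the same test (6.02% higher and 5.61% lower with siEGFR, 10.2% higher and 10.1% lower with inhibitors). MAPK output genes lay on the lower side in both panels.

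Counting only genes whose mean reached the median of all genes, the 12 largest rises began with SCEL and CCL2. After SCEL and CCL2 came NEK7, a mitotic kinase that also assembles the NLRP3 inflammasome (1.68), MAP2, a microtubule protein (1.66), ID2, STON1, an endocytic adaptor (1.61), FRK, a kinase of the SRC family (1.58), CYP4F3, which breaks down leukotrienes (1.57), EIF5A2, a translation factor (1.56), and GRAMD1C, SMIM14 and ERP27 at 1.49, 1.49 and 1.46. NEK7 was at 10.07, 10.15 and 9.36 in siEGFR arrays and at 8.49, 8.24 and 7.81 in scramble arrays, with the batch M array lowest in both groups. SCEL and STON1 lost their calls against the arrays with scramble and PBS. CCL2, FRK, GRAMD1C and SMIM14 lost theirs against PBS arrays, where EIF5A2 was at -0.06.

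After EGFR the largest falls were those of C6orf120, an uncharacterized secreted protein (-1.48), HAS3, a hyaluronan synthase (-1.33), DUSP5, ANTXR2, an anthrax toxin receptor (-1.31), LIMA1, an actin cross-linker (-1.31), MCFD2, an export factor of the endoplasmic reticulum (-1.29), FOSL1, NETO2 (-1.24), DUSP6, FAM20C, a kinase of secreted proteins (-1.21), and DCBLD2, a transmembrane receptor (-1.18). LIMA1 was at 9.44, 9.42 and 9.24 in siEGFR arrays and at 10.71, 10.73 and 10.58 in scramble arrays. The groups were far apart for their spread (SE 0.09, adjusted p = 9.8e-17), the next lowest p after EGFR among these 12. The MCFD2 call was lost when the probe set was chosen by the rule of the study. HAS3 and NETO2 lost theirs against PBS arrays, and FOSL1 in batch J alone and against the arrays with scramble and PBS.

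The scramble arrays themselves differed from the arrays that had PBS and no siRNA. Against PBS, 1641 genes differed in the scramble arrays (855 higher, 786 lower), and 50 of them by at least 1. CDH1 averaged 11.38 in siEGFR arrays, 10.09 in scramble arrays and 11.34 in PBS arrays, and was at 9.92 and 10.01 in the arrays with scramble and PBS. EIF5A2 averaged 7.26 in siEGFR arrays, 5.69 in scramble arrays and 7.32 in PBS arrays, and PIK3R1 averaged 7.96 in siEGFR arrays, 7.01 in scramble arrays and 7.80 in PBS arrays. For these 3 genes siEGFR arrays and PBS arrays were alike in level and the scramble arrays were low. The difference of siEGFR from PBS was 0.04 for CDH1 (adjusted p = 0.96), -0.06 for EIF5A2 (adjusted p = 0.94) and 0.17 for PIK3R1 (adjusted p = 0.57). The part of transfection, and of the scramble sequence, in these differences was not tested.

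Other genes differed from both kinds of control. EGFR averaged 8.48 in siEGFR arrays, 10.37 in scramble arrays and 10.65 in PBS arrays, and LIMA1 averaged 9.37 in siEGFR arrays, 10.67 in scramble arrays and 10.65 in PBS arrays. ID2 averaged 8.89 in siEGFR arrays, 7.25 in scramble arrays and 7.26 in PBS arrays. The fall of DUSP6 was -1.34 against PBS (adjusted p = 6.7e-06), that of EGR1 was -2.24 (adjusted p = 8.4e-16) and that of HBEGF was -1.31 (adjusted p = 6.6e-14). In the comparison with PBS 1345 genes differed in siEGFR arrays, and in that with the 2 arrays of scramble and PBS, which were no part of the scramble group, 883 differed. The latter comparison crosses into batch E, so it leans on a batch term estimated from other groups. Its differences are adjusted for batch and need not equal those of the printed levels. The part of batch in the calls lost there was not tested. In this last comparison NEK7 rose by 1.59 (adjusted p = 6.2e-06), CDH1 by 0.99 (adjusted p = 0.02) and EIF5A2 by 1.26 (adjusted p = 0.00049), while FOSL1 gave -0.79 (adjusted p = 0.10) and SCEL 1.01 (adjusted p = 0.067).

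**Figure D3:**
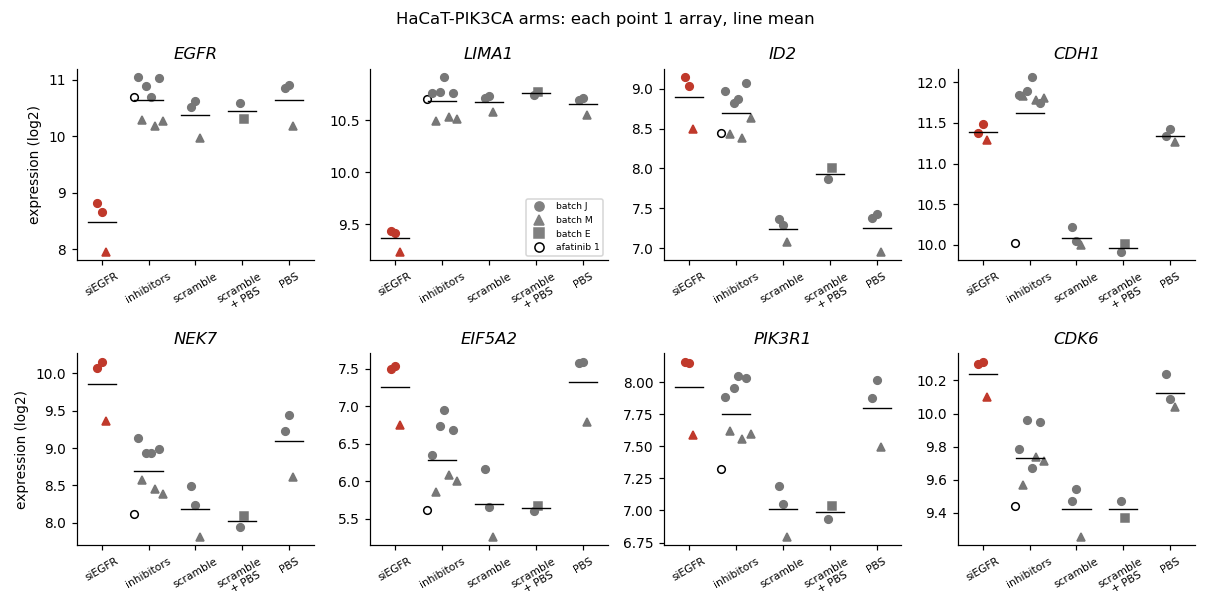
Expression (log2, vertical axis) of 8 genes, chosen after their values were seen, in every siEGFR, inhibitor, scramble, scramble with PBS, and PBS array of HaCaT-PIK3CA. Each point is 1 array, the line is the mean, symbols give the batch and the open circle is replicate 1 of afatinib, which for CDH1 lies at 10.03 among the scramble arrays. EGFR and LIMA1 are low in siEGFR arrays alone, whereas CDH1 and EIF5A2 reach 11.34 and 7.32 on average in PBS arrays.

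Knockdown and receptor inhibition were compared within HaCaT-PIK3CA, each against its own control arrays. The mean of the 3 inhibitors against PBS raised 2011 genes (10.2%) and lowered 1999 (10.1%), and 2409 (12.2%) and 2469 (12.5%) without afatinib replicate 1. Of the 2300 genes changed by siEGFR, 921 changed in the same direction with the inhibitors, which is 40.0% of the siEGFR genes and 23.0% of the inhibitor genes, and 178 changed in the opposite direction. Without that array 1071 changed in the same direction (46.6% and 22.0%) and 181 in the opposite one. Across all genes the Pearson correlation of the 2 responses was 0.37, where genes are not independent replicates. It was 0.53 with inhibitors given on scramble siRNA against scramble and PBS. The 2 responses differed by the test of the difference for 1695 genes, 930 with a higher value for siEGFR (4.7%) and 765 with a lower one (3.87%), and without that array for 1246 (6.3%) and 1209 (6.11%).

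MAPK output genes that differed between the responses were, but for 1, less lowered with siEGFR against scramble than with the inhibitors against PBS. With siEGFR 11 of 29 fell (median -0.40), and with inhibitors 24 fell and 1 rose (median -0.70, and -0.75 without afatinib replicate 1). The difference of the responses was positive past the test for 8 members and negative for 1, and without that array for 10 and 1. EGR1 gave -1.13 with siEGFR and -2.77 with inhibitors, a difference of 1.64 (SE 0.21, adjusted p = 7.5e-08). The 2 responses have different controls, and against PBS arrays EGR1 was at -2.24 in siEGFR arrays. Against PBS arrays 13 of the 29 members fell with siEGFR. The part of the controls in these differences was not tested. ETV5 gave -0.70 with siEGFR and -2.35 with inhibitors (difference adjusted p = 7.7e-05), and DUSP6 gave -1.21 with siEGFR and -2.34 with inhibitors (adjusted p = 0.0037). DUSP5 was the exception, with -1.32 for siEGFR and -0.65 for inhibitors (adjusted p = 0.0047). NRG1, which gave 0.16 with siEGFR, fell by 1.10 with inhibitors, a difference of 1.26 (SE 0.16, adjusted p = 9.9e-08).

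Single keratin genes also differed between the responses. Of 17 suprabasal and mucosal genes 3 had a lower value with siEGFR and 0 a higher one, of 16 cornified envelope genes 2 and 3, of 12 junction genes 4 and 2, and of 10 desmosome genes 1 and 0. With afatinib replicate 1 left out, these counts were 3 and 0, 3 and 3, 4 and 3, and 2 and 0. KRT4 and KRT13 gave 0.44 and 0.63 with siEGFR, against 2.62 and 2.19 with inhibitors, and the differences were -2.18 (adjusted p = 7.8e-05) and -1.56 (adjusted p = 0.0071). Without afatinib replicate 1, in which KRT4 was at 6.10 where the other 7 inhibitor arrays were at 8.12 to 9.21, the differences were -2.52 and -1.87. NT5E, the ectonucleotidase CD73, gave -0.52 with siEGFR (adjusted p = 0.225) and -2.54 with inhibitors (difference adjusted p = 2.9e-05). IVL rose in both, by 0.84 with siEGFR and by 1.56 with inhibitors (difference adjusted p = 0.04). PLAU fell by 0.75 with siEGFR and rose by 0.28 with inhibitors (difference -1.03, adjusted p = 2.5e-08).

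Cell cycle genes that passed the test were mostly higher with siEGFR and lower with inhibitors. Of 28 S, G2 and M phase genes, 5 rose and 1 fell with siEGFR, while with inhibitors 0 rose and 8 fell, or 12 without afatinib replicate 1. TYMS rose by 0.49 with siEGFR and fell by 0.15 with inhibitors, a difference of 0.64 (SE 0.10, adjusted p = 1.1e-07). CDK6 rose by 0.81 with siEGFR and fell by 0.38 with inhibitors (difference 1.19, adjusted p = 2.8e-08). For CDK6 the level was 10.24 in siEGFR arrays on average, 9.42 in scramble arrays and 10.12 in PBS arrays, so the scramble arrays were the low ones here too.

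Of 24 interferon response genes 8 rose with siEGFR and 16 with inhibitors, or 18 without afatinib replicate 1. The responses differed for 3 of them, all lower with siEGFR, and for 12 without that array. TRIM22 rose by 1.22 with siEGFR and by 2.04 with inhibitors, a difference of -0.82 (adjusted p = 0.17), which became -1.10 without that array (adjusted p = 2.3e-04). CCL2 rose by 1.85 with siEGFR and by 2.51 with inhibitors, a difference of -0.66 (adjusted p = 0.58), and of -1.15 without that array (adjusted p = 6.9e-04).

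Of the 28 genes that fell by at least 1 with siEGFR, 22 also fell with inhibitors and 17 differed between the responses. LIMA1 fell by 1.31 with siEGFR and gave 0.03 with inhibitors (difference -1.34, without afatinib replicate 1 -1.34). C6orf120 fell by 1.48 with siEGFR and gave -0.16 with inhibitors (difference -1.32, adjusted p = 8.4e-08), and TAP2, by the same probe set as above, fell by 0.74 with siEGFR and gave 0.03 with inhibitors (difference adjusted p = 1.5e-07). Of the 87 genes that rose by at least 1 with siEGFR, 35 also rose with inhibitors, 7 fell and 55 differed. Over all 19775 genes 1695 differed. Both sets were chosen for a large siEGFR response, which is itself a term of the difference. A raised share that differed is therefore partly built in and is no separate result. The largest positive differences, with the same limit on level, were those of EIF5A2 (2.56), NEK7 (2.05), NT5E (2.01), LRRC58 (1.88), ZC3HAV1L (1.76) and ELL2 (1.71). The largest negative ones were those of KRT4 (-2.18), EGFR (-1.91), MPPED2 (-1.76), TNFAIP2 (-1.71), ASS1 (-1.68) and KRT13 (-1.56).

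**Figure D4:**
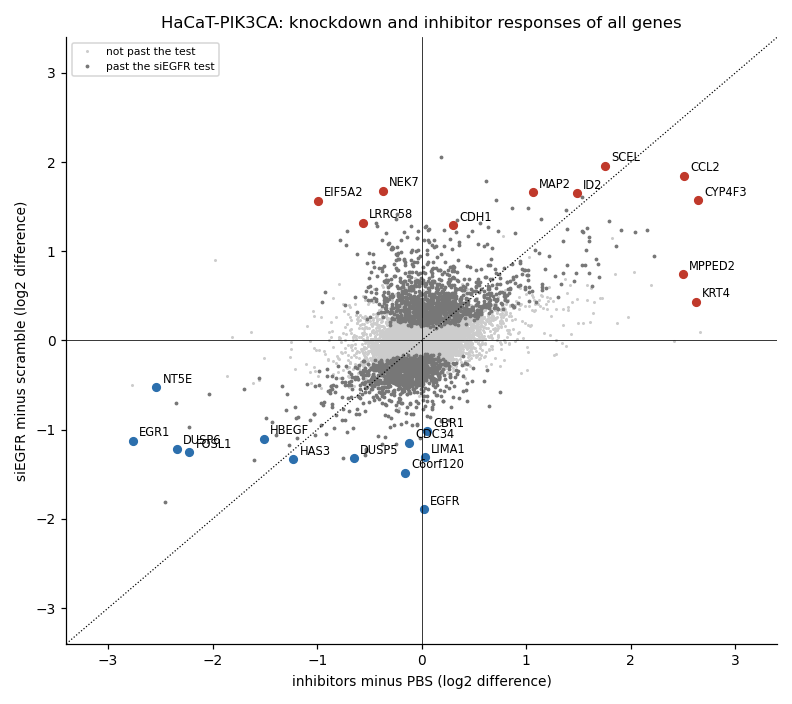
Difference of siEGFR from scramble (vertical axis, log2) against the mean difference of the 3 inhibitors from PBS (horizontal axis, log2) for all 19775 genes in HaCaT-PIK3CA. Dark points passed the siEGFR test, the dotted line marks equal responses, and EGFR lies at -1.89 on the vertical axis and 0.02 on the horizontal axis.

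The knockdown was also set against the same knockdown in the other lines, which have their own scramble arrays. EGFR gave -1.89 in HaCaT-PIK3CA, against -2.11 in HaCaT-Mock, -1.71 in HaCaT-EGFR and -1.97 in HaCaT-HRAS, and the difference of HaCaT-PIK3CA from the mean of the other 3 was 0.04 (95% interval -0.18 to 0.26). Of the 2300 genes, 2178 had the same direction in all 4 lines and 779 passed the test in each. Of all 19775 genes, 2138 passed in HaCaT-Mock, 1871 in HaCaT-EGFR and 1243 in HaCaT-HRAS. The share with the same direction in all 4 lines was not counted over all genes. Across all genes the response correlated at 0.80 with that of HaCaT-Mock, 0.75 with HaCaT-EGFR and 0.67 with HaCaT-HRAS. In limma's test of the difference from the mean of the other lines 0 genes passed, with 565 at an unadjusted p under 0.05, and 0 passed against HaCaT-Mock, with 453. The unadjusted 95% interval of such a difference reached 0.26 to either side for the median gene, and it is no limit of detection for the adjusted test.

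Single genes differed from 2 of the lines. Against HaCaT-HRAS 3 genes passed, of which ID2 rose by 1.65 in HaCaT-PIK3CA and by 0.70 in HaCaT-HRAS (difference 0.95, SE 0.18, adjusted p = 0.025), and ANTXR2 fell by 1.31 in HaCaT-PIK3CA and gave -0.28 in HaCaT-HRAS (difference -1.03, adjusted p = 0.025). Against HaCaT-EGFR 2 genes passed, RPTN and TUSC1, both at low levels. MAPK output genes had a median of -0.40 in HaCaT-PIK3CA, -0.44 in HaCaT-Mock, -0.38 in HaCaT-EGFR and -0.12 in HaCaT-HRAS, where 11, 16, 14 and 3 members fell. DUSP6 fell by 1.21 in HaCaT-PIK3CA and gave -0.22 in HaCaT-HRAS, a difference of -0.99 that did not pass over all genes (adjusted p = 0.55).

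**Figure D5:**
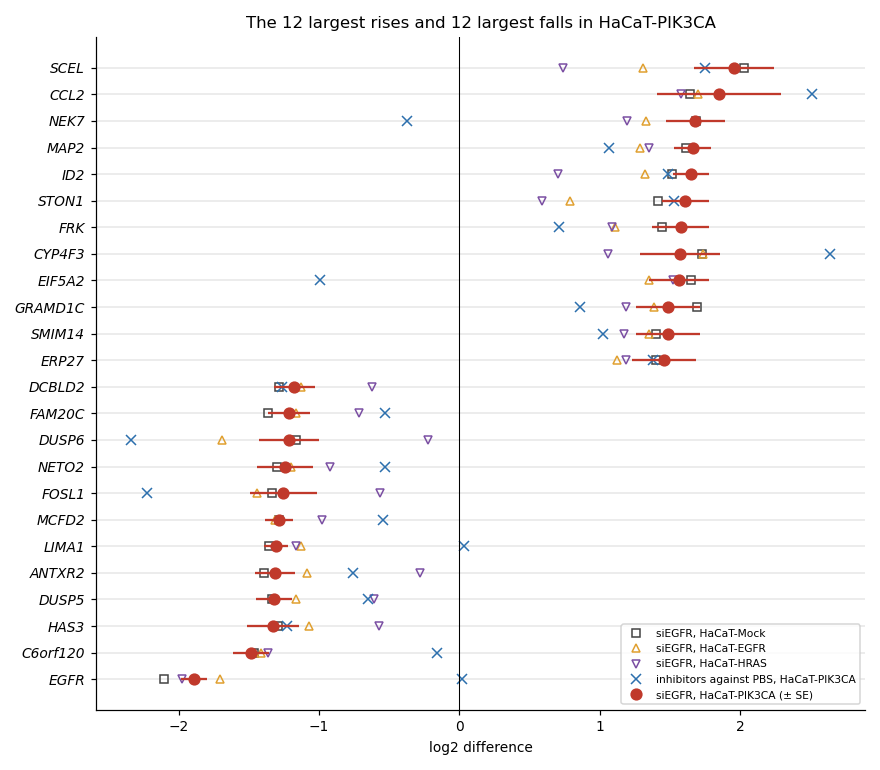
Difference of siEGFR from scramble (horizontal axis, log2) for the 12 largest rises and 12 largest falls in HaCaT-PIK3CA, at or above the median level. Filled circles are HaCaT-PIK3CA with their SE, open symbols the other 3 lines, and crosses the averaged inhibitor response of HaCaT-PIK3CA. EGFR lies between -2.11 and -1.71 in all 4 lines, and its cross lies at 0.02.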

How the data were processed

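Total RNA was hybridised to Affymetrix U133 Plus 2.0 arrays. The authors deposited a log2 value for every probe set and array (2.65 to 14.5). The submitters' processing notes name affy. According to the methods, arrays were normalized by frozen RMA, corrected for batch through surrogate variables and dropped where they fell away from their replicates. Whether the deposited values carry each of these steps is not stated in any source at hand. The labels name 2 labelling kits without saying which array had which.

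Of 54675 probe sets, 41097 had 1 gene symbol in the platform annotation, while 1801 had several and 11777 were not listed. A gene (19775 in all) was represented by whichever of its probe sets was brightest on average in the HaCaT construct arrays, with no filter on low values. Groups, batches and batch J replicate numbers came from the labels, and other replicate numbers from accession order. All 89 HaCaT construct arrays entered 1 limma model (version 3.58.1, R 4.3.3, data.table package version 1.17.8) with a term per group and for batches J, E and M (47 residual degrees of freedom). P-values were adjusted over all genes by Benjamini and Hochberg's method, and changed means an adjusted p under 0.05. The number of arrays limits the precision. The fit was tested on simulated data.

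The genes named were EGFR, all measured ERBB receptors, ERBB ligands and MAPK output genes, the 12 largest rises and falls at or above the median level (6.102), up to 4 members with the lowest adjusted p in each other list, and the 6 highest and lowest differences of each test of a difference. TAP2, RPTN, TUSC1, ABCA13 and the genes of the plot of control arms were also looked at after their values were seen. The members and all 40 gene lists (506 of 560 listed genes measured) were chosen with earlier results of these data known. Alternatives covered the arrays in the fit, the batch term, array weights, the probe set rule, a level filter, quantile normalization and leaving out each array. Comparisons with PBS arrays, with scramble and PBS arrays, and without afatinib replicate 1 were added after seeing the data.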

Additional observations from a re-analysis of the deposited data

Results flagged for a closer look

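The following results were singled out because the knockdown response differed between lines by the test of the difference itself. RPTN, a cornified envelope gene at a low mean level of 4.507, gave 0.08 in HaCaT-PIK3CA and 1.64 in HaCaT-EGFR, a difference of -1.56 (SE 0.28, limma adjusted p = 0.012). TUSC1, at 4.401, rose by 0.54 in HaCaT-PIK3CA and gave -0.67 in HaCaT-EGFR, a difference of 1.20 (adjusted p = 0.012). ABCA13, a lipid transporter at 3.835, rose by 2.05 in HaCaT-PIK3CA and gave 0.30 in HaCaT-HRAS, a difference of 1.75 (adjusted p = 0.0027). RPTN, TUSC1 and ABCA13 lay below the median level and were named after their values were seen. ANTXR2 differed from HaCaT-HRAS by -1.03 and ID2 by 0.95 (adjusted p = 0.025 each).

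Signal was also found in probe sets that entered no gene of the report. Of 11721 probe sets with no listed gene, 245 passed the siEGFR test (149 higher, 96 lower), and of 1801 with several gene symbols 92 passed (45 higher, 47 lower). They are unnamed here and not analysed further.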

How the results depend on the processing

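EGFR kept its fall in every alternative run, between -1.83 and -1.96 when 1 array was left out, and was at -0.87 with the mean over its 9 probe sets. The count of 2300 changed genes was 1587 to 1956 when 1 array was left out, 3648 with only the 24 siRNA arrays in the fit, 1059 with batch J alone, 763 without the batch term and 4772 with array weights, which did not reach their convergence tolerance. It was 883 against the scramble and PBS arrays, 697 of them shared, and 1345 against PBS arrays, 701 of them shared. The count over all lists was 107 calls, 82 to 96 when 1 array was left out, and 182 (24 siRNA arrays), 54 (batch J), 52 (no batch term), 210 (array weights) and 59 (against scramble and PBS arrays). The MAPK output count of 11 was 9 to 10 when 1 array was left out, and 17 (only the 6 arrays), 19 (24 siRNA arrays), 5 (batch J), 19 (array weights) and 4 (against scramble and PBS arrays).

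Against the mean of the other lines 2 genes passed with array weights in place of 0. Against HaCaT-EGFR 6 passed with array weights and 0 with genes at or above the median level, and 0 to 2 when 1 array was left out: 0 without siEGFR replicate 1 or 2 or scramble replicate 2 or 3. Against HaCaT-HRAS 74 passed with the 24 siRNA arrays, 1 in batch J, 0 without the batch term, 126 with array weights and 5 with quantile normalization, and 0 to 3 when 1 array was left out: 0 without siEGFR replicate 2, and 1 without siEGFR replicate 1 or scramble replicate 1 or 2. The 1695 genes that differed from the inhibitor response were 671 in batch J, 437 without the batch term, 4329 with array weights and 574 with inhibitors on scramble siRNA, 1265 to 1602 when 1 siRNA array was left out, and 2455 without afatinib replicate 1, 1688 of them shared.

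With the replicate number as a block the counts were 2154 changed genes, 1539 differing from inhibitors and 1 against HaCaT-HRAS. Same-numbered batch J arrays correlated at -0.06 after removal of group means, so beyond the batch the arrays share only a number.

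Over the named genes 4520 values were recomputed, of which 4039 kept direction and side of the threshold, 333 lost the call, 134 gained it and 14 turned. Under the probe set rule of the study HRK was at -0.0414 (adjusted p = 0.94) and COL1A1 at 0.54 (adjusted p = 0.0082). Against scramble and PBS arrays FGFR3 was at -0.16 and SLC7A11 at -0.15. Against PBS arrays ERRFI1 was at -0.95, EIF5A2 at -0.0593, SOS1 at -0.00589, FLG at -0.10, SLC7A11 at -0.86, ATF4 at -0.33, HRK at -0.0679, PMAIP1 at -0.34, CLDN1 at -0.0302 and TNRC6A at 0.31. Of 110 named calls beside EGFR 42 were lost in batch J alone, 43 without the batch term and 82 in at least 1 alternative, and 28 were lost in none. The cause was not tested. Batch M alone gave values and no test.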
